A study of Homo sapiens with 2 samples.

Results

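Lysosomal enzymes, lysosomal membrane proteins and subunits of the vacuolar proton pump were compared between MTAC-P, a human lung cancer line derived from PC9 that resists EGFR tyrosine kinase inhibitors, and PC9, the sensitive parent line of lung adenocarcinoma. The set holds 50 genes of the 30843 symbols in the tables. They were taken by symbol from a list selected on the FPKM of these same libraries as well as on function: the differences of MAN2B1 and ATP6V0B were already known when it was drawn up. All 50 symbols were found, with 132 of the 65535 listed transcripts. Each line has a single column of values, treated here as 1 library, although the series text speaks of triplicates; whether a column pools or averages several was not stated. There is thus no replicate check on any value, and no p-value was computed. Both lines were grown in DMEM with serum, and the labels name neither a treatment at harvest nor the inhibitor used to derive MTAC-P, which is 1 resistant line. Each library is bulk RNA of a culture, in which fewer cells that express a gene and less RNA per cell cannot be told apart.

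Lysosomes are the acidic compartment in which proteins, glycans, lipids and nucleic acids are taken apart. Their soluble hydrolases are made in the endoplasmic reticulum, are tagged with mannose 6-phosphate in the Golgi and are carried to the lysosome by receptors that recognise that tag. The acid that the hydrolases need comes from the V-ATPase, whose cytosolic V1 sector splits ATP and turns a ring of proteolipid subunits in the membrane-bound V0 sector. Many of these genes carry a site for TFEB and its relatives, transcription factors that mTORC1 keeps in the cytoplasm when nutrients are plentiful. Several EGFR inhibitors are weak bases, a kind of compound that can collect in acidic lysosomes.

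The deposited values are taken as FPKM, a fragment count corrected for transcript length and library size. They summed to 685082 in MTAC-P and 693444 in PC9; sequencing depth is not known. The 50 genes made up 0.307% of the MTAC-P sum and 0.378% of the PC9 sum. These shares lean on abundant genes: of 2104 FPKM in MTAC-P and 2620 in PC9, the protease gene CTSC alone held 334 and 706. Both tables end at transcript number 437205, and transcripts with later numbers were not analysed here. Of the 305 coding transcripts that GENCODE release 29 gives for the 50 genes, 102 were listed. All coding transcripts were listed for 7 genes and a part for the other 43, while at least 1 principal transcript (the main protein form, by GENCODE's APPRIS tag) was listed for 44. Epithelial markers were high in both libraries, such as EPCAM at 156 FPKM in MTAC-P and 161 in PC9. The 12 leukocyte markers, which bear on cells rich in lysosomes, summed to 3.01 FPKM in MTAC-P and 2.83 in PC9, with PTPRC at 0.0460 FPKM in MTAC-P and 0.0910 in PC9. The highest in MTAC-P was FCER1G, at 1.32 FPKM against 0.470 in PC9. In PC9 the highest was CD14, at 1.19 FPKM against 0.605 in MTAC-P. CSF1R stood at 0.610 FPKM in MTAC-P and 0.136 in PC9. The markers thus went in both directions, and none averaged 1 FPKM across the pair. The osteoclast markers summed to 0.103 FPKM in MTAC-P and 0.444 in PC9, and the melanocyte markers to 0.332 in MTAC-P and 0.298 in PC9.

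Most lysosomal and pump genes stood at about the same level in both lines. Of the 50, 48 averaged 1 FPKM or more across the pair of libraries. These were compared by the log2 ratio, which is log2((MTAC-P + 1)/(PC9 + 1)). The pseudocount of 1 makes the ratio of low genes smaller. In MTAC-P, MAN2B1, ATP6V0B and the protease gene CTSS were 2-fold or more higher, and the protease gene CTSC was 2-fold or more lower. These 4 of 48 (8.33%) stand beside 7.77% of all 11435 genes compared, of which 3.48% were at least 2-fold higher and 4.29% lower. The list was chosen with this contrast in view, so nothing is read from its count. Among the 7 members with every coding transcript listed none was at 2-fold, beside 5.75% of 2538 such genes in all. The median log2 ratio of the 48 was -0.06, beside -0.02 over all genes. CTSS (1.15) and CTSC (-1.08) lie just past 2-fold, and GLB1 (-0.90) lies just within it. The 2 genes not compared, IDUA and CTSH, had low values: IDUA stood at 0.902 FPKM in MTAC-P and 0.00554 in PC9, and CTSH at 0.715 FPKM in MTAC-P and 0.474 in PC9.

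**Figure D1:**
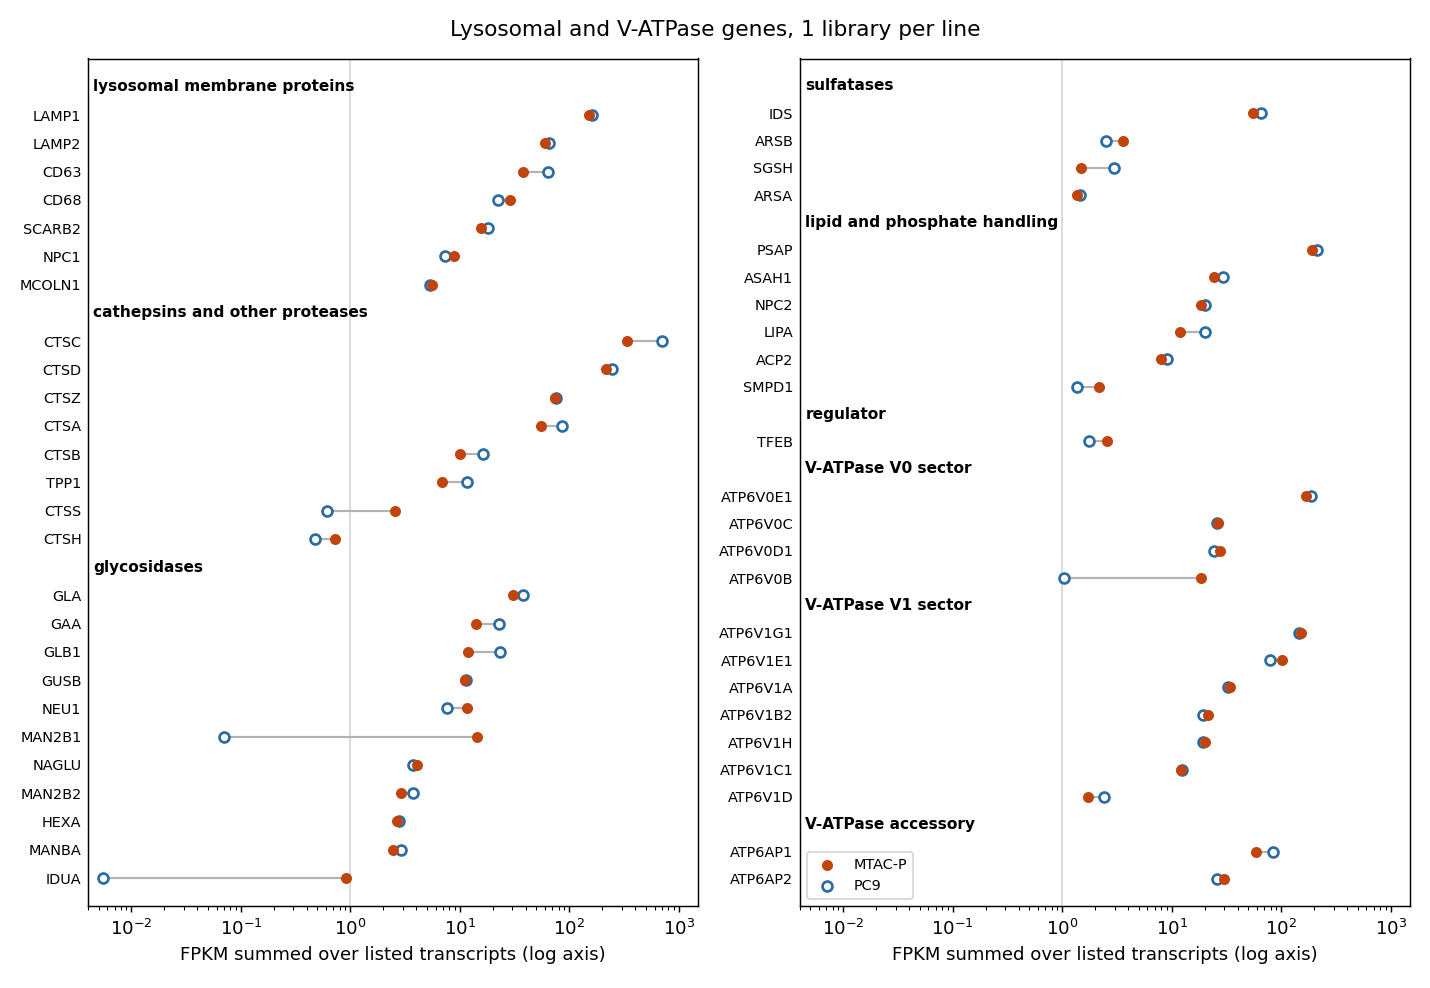
FPKM summed over the listed transcripts of each of the 50 genes (log axis), by role, in 1 MTAC-P library (filled) and 1 PC9 library (open); the vertical line marks 1 FPKM. Most pairs lie close together, while MAN2B1 and ATP6V0B are at 14.3 and 18.3 FPKM in MTAC-P, against 0.0701 and 1.05 FPKM in PC9.

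MAN2B1 encodes the lysosomal alpha-mannosidase that trims mannose from glycoproteins, and its loss causes alpha-mannosidosis. It lies on chromosome 19 at 12646511 to 12666742 (GRCh38, minus strand). The summed value was 14.3 FPKM in MTAC-P and 0.0701 FPKM in PC9, a log2 ratio of 3.83. This ratio was 1.93 with a pseudocount of 5 and 6.40 with 0.1. Nearly all of the MTAC-P value, 96.5%, came from 1 listed transcript.

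That transcript, ENST00000433513, stood at 13.8 FPKM in MTAC-P and 0.0278 FPKM in PC9. The other listed transcript, the full-length ENST00000221363, stood at 0.493 FPKM in MTAC-P and 0.0423 FPKM in PC9. The tables call both protein-coding, but GENCODE 29 gives ENST00000433513 as a processed transcript of 560 bases with no coding sequence. It has 6 exons, against 24 in the full-length form, and shares 535 of its bases with that form. The other 25 bases are a first exon, at chr19:12657211-12657235, that lies within an intron of the full-length form and in no other GENCODE transcript of the gene. The principal transcript of MAN2B1, ENST00000456935, was not analysed here, and it holds all 3170 bases of ENST00000221363. With transcripts that GENCODE types as coding, MAN2B1 was below the minimum mean in the comparison. More RNA from the gene and another split of the same RNA between its transcripts cannot be told apart. The bases that set the short transcript apart are printed below beside the same stretch of the full-length form, read from GENCODE 29, 5′ to 3′ on the minus strand. Capitals mark the exon ahead of the junction, and the lower-case bases after it are common to both. The stretches span chr19:12657022-12657235 in the short form and chr19:12657022-12657470 in the full-length form, introns left out.
MAN2B1 ENST00000433513: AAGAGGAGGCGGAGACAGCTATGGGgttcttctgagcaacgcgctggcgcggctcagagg
MAN2B1 ENST00000221363: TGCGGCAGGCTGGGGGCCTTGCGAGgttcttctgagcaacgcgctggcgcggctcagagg

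ATP6V0B encodes a proteolipid of the V0 ring, the part of the pump that carries protons through the membrane. It lies on chromosome 1 at 43974487 to 43978295 (GRCh38, plus strand). Its single listed transcript, ENST00000236067, stood at 18.3 FPKM in MTAC-P and 1.05 FPKM in PC9, a log2 ratio of 3.24. The ratio was 1.95 with a pseudocount of 5 and 4.01 with 0.1. GENCODE 29 gives 6 coding transcripts for the gene, and the other 5, the principal one (ENST00000472174) among them, were not analysed here.

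The listed transcript of 944 bases lies wholly within the exons of the principal one, of 1298 bases, and lacks its second exon of 49 bases (chr1:43975800-43975848). Its coding sequence starts further downstream, so the junction printed here is untranslated in the listed form. The first line gives the principal form with the skipped exon in capitals (chr1:43975088-43976109, introns left out), and the second gives the listed form with the base on each side of the junction in capitals (chr1:43975093-43976104), both 5′ to 3′ on the plus strand.
ATP6V0B ENST00000472174: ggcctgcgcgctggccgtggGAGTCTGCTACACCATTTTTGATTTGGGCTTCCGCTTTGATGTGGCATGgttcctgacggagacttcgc
ATP6V0B ENST00000236067: gcgcgctggccgtgGGttcctgacggagac
The ATP6V0B value thus rests on 1 form that skips an exon, and as for MAN2B1 a higher level of the gene and a different choice of transcript cannot be told apart.

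**Figure D2:**
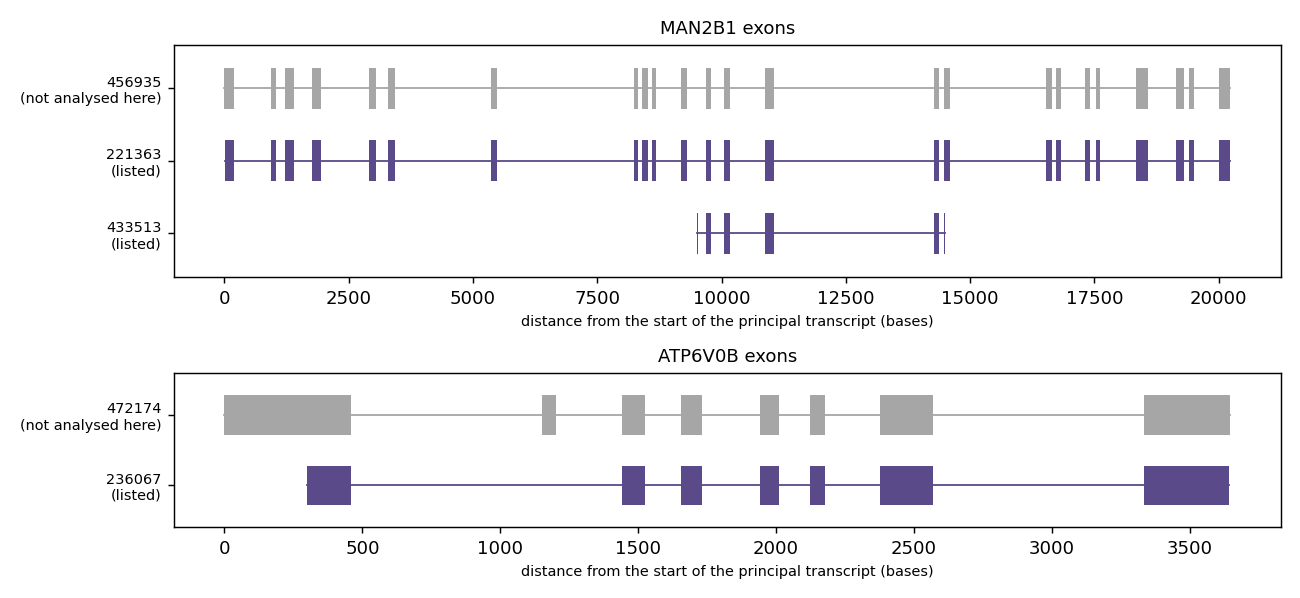
Exons (boxes, to scale) of the listed transcripts of MAN2B1 and ATP6V0B (dark) and of the principal transcript of each gene (grey, not analysed here), as distance in bases from the start of the principal transcript. The MAN2B1 transcript ENST00000433513 covers 6 exons in the middle of the gene, and the listed ATP6V0B transcript lacks the 49-base second exon.

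Neither gene differed together with its group. The other 12 pump subunits had log2 ratios between -0.50 and 0.36, with a median of 0.06 and none at 2-fold. The other 9 glycosidases compared lay between -0.90 and 0.55, with a median of -0.19. The glycosidase IDUA, below the minimum mean and so not compared, also had the higher value in MTAC-P, 0.902 FPKM against 0.00554 in PC9. Among all genes, 11.5% of the 794 with no principal transcript listed were at least 2-fold apart, against 5.85% of the 9038 with one listed. The 6 members with none listed were MAN2B1, ATP6V0B, SMPD1, NPC2, ATP6V0E1 and ATP6AP2, and the other 4 of them lay between -0.15 and 0.41.

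In the V0 sector, ATP6V0C, the main proteolipid of the ring, stood at 26.5 FPKM in MTAC-P and 25.8 FPKM in PC9. ATP6V0D1, which couples the ring to the rotor, stood at 27.5 FPKM in MTAC-P and 24.4 in PC9, and ATP6V0E1, a small membrane subunit, at 168 FPKM in MTAC-P and 186 in PC9. These 3 subunits had log2 ratios of 0.04, 0.17 and -0.15, so apart from ATP6V0B the V0 subunits that belong to the set were at near-equal levels.

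In the V1 sector, 5 of 7 subunits lay above 0 and none reached 1.5-fold. ATP6V1G1, a stalk subunit, stood at 151 FPKM in MTAC-P and 145 FPKM in PC9, and ATP6V1E1, its partner in the stalk, at 101 FPKM in MTAC-P and 78.8 in PC9 (0.36). The principal ATP6V1E1 transcript, its most abundant, was lower in MTAC-P, at 41.2 FPKM against 49.9 in PC9 (-0.27), so the direction of the sum comes from its other transcripts. The catalytic subunit ATP6V1A stood at 34.1 FPKM in MTAC-P and 32.9 in PC9 and the nucleotide-binding subunit ATP6V1B2 at 21.4 FPKM in MTAC-P and 19.1 in PC9. The other 3, ATP6V1H, ATP6V1C1 and ATP6V1D, had ratios of 0.06, -0.02 and -0.34. Of the accessory subunits, ATP6AP1 stood at 59.4 FPKM in MTAC-P and 84.1 FPKM in PC9 (-0.50), and ATP6AP2, the prorenin receptor, at 29.7 FPKM in MTAC-P and 26.1 in PC9 (0.18). The pump genes other than ATP6V0B summed to 654 FPKM in MTAC-P and 657 in PC9.

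Of 25 lysosomal enzymes compared, 19 (76%) were below 0, with a median of -0.19, while 4 of 13 pump subunits were. Over all genes, 52.4% were below 0. At 1.5-fold, 8 enzymes were lower in MTAC-P (CTSA, CTSB, CTSC, TPP1, GAA, GLB1, SGSH and LIPA) and 2 higher, where 11.2% of all genes were lower and 8.96% higher. The enzymes were part of a list drawn up with this contrast known, and the count is a description.

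**Figure D3:**
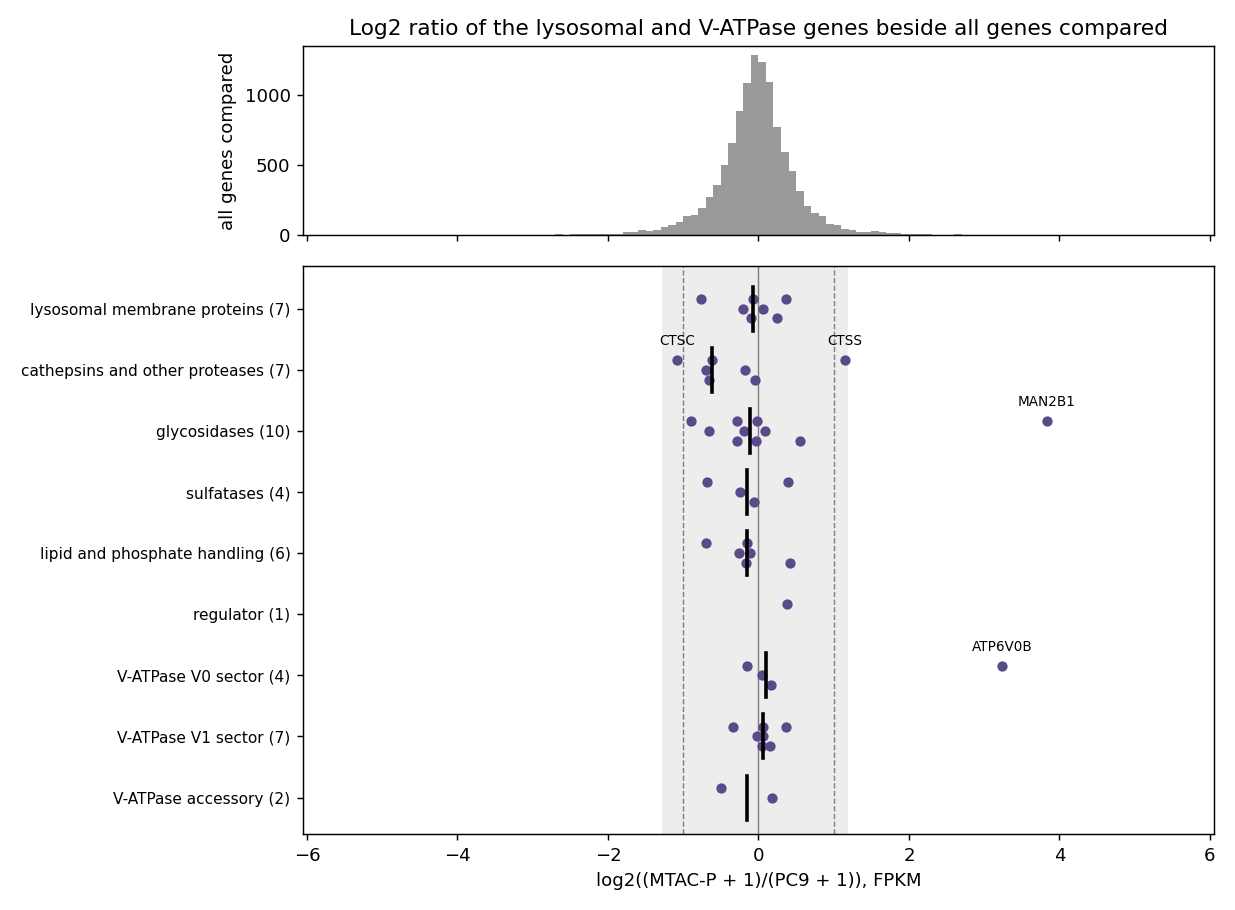
Top, number of genes at each log2 ratio among all 11435 compared; bottom, log2 ratios of the 48 lysosomal and pump genes compared, by role (number in brackets), with group medians as bars, dashed lines at 2-fold and grey shading over the middle 95% of all genes. MAN2B1 (3.83) and ATP6V0B (3.24) lie far outside the shading, and the cathepsin group has its median at -0.62.

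Proteases had the lowest median of the role groups, at -0.62, with 6 of 7 compared below 0. CTSC, a dipeptidyl peptidase that activates the serine proteases of leukocyte granules, was the most abundant of all 50 genes in both libraries, at 334 FPKM in MTAC-P and 706 FPKM in PC9 (-1.08; chromosome 11, 88293592 to 88337787). Its 3 listed transcripts all had lower values in MTAC-P. The principal ENST00000227266 stood at 203 FPKM in MTAC-P and 402 FPKM in PC9, a ratio of -0.98 that is just within 2-fold. ENST00000320621, which is not in the GENCODE 29 annotation read here, stood at 126 FPKM in MTAC-P and 284 in PC9. ENST00000393301, a processed transcript in that annotation, stood at 5.45 FPKM in MTAC-P and 20.1 in PC9. CTSC was thus lower in each of its listed transcripts, the abundant ones included, but only 1 of its 5 GENCODE coding transcripts was listed.

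CTSS encodes a cysteine protease known for trimming the invariant chain of MHC class II in antigen-presenting cells (chromosome 1, 150730196 to 150765957). Its single listed transcript, the principal one, stood at 2.57 FPKM in MTAC-P and 0.607 FPKM in PC9, a ratio of 1.15. At this low level the pseudocount sets the ratio, which was 0.43 with 5 and 1.92 with 0.1, and with 5 it was within 2-fold.

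The other cathepsins were within 2-fold. The aspartic protease CTSD stood at 215 FPKM in MTAC-P and 244 FPKM in PC9 (-0.18), but its principal transcript had a ratio of -0.63. The carboxypeptidase CTSZ, whose only GENCODE coding transcript was listed, stood at 73.4 FPKM in MTAC-P and 76.0 in PC9 (-0.05). CTSA, which protects beta-galactosidase and the sialidase NEU1 in a complex, stood at 55.1 FPKM in MTAC-P and 85.4 FPKM in PC9 (-0.62). That difference sat in ENST00000372459, at 4.63 FPKM in MTAC-P and 32.1 FPKM in PC9, while ENST00000191018 stood at 49.9 FPKM in MTAC-P and 52.4 in PC9. The cysteine protease CTSB stood at 10.0 FPKM in MTAC-P and 16.3 in PC9 (-0.65), and TPP1, a tripeptidyl peptidase lost in a childhood neuronal storage disease, at 6.81 FPKM in MTAC-P and 11.7 in PC9 (-0.70).

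Among glycosidases, which remove sugars one by one from glycans and glycolipids, 7 of 10 compared lay below 0. GLA, the alpha-galactosidase missing in Fabry disease, stood at 30.7 FPKM in MTAC-P and 37.4 FPKM in PC9 (-0.28). GAA, which breaks down glycogen and is missing in Pompe disease, stood at 14.1 FPKM in MTAC-P and 22.8 in PC9 (-0.65), with the difference in ENST00000390015, at 11.1 FPKM in MTAC-P and 19.6 in PC9. The beta-glucuronidase GUSB stood at 11.2 FPKM in MTAC-P and 11.4 in PC9 (-0.02). The sialidase NEU1 stood at 11.7 FPKM in MTAC-P and 7.66 in PC9 (0.55), summed over 6 listed transcripts. The difference was in ENST00000434496, which is not in the GENCODE 29 annotation read here, at 7.02 FPKM in MTAC-P and 1.52 in PC9. The only NEU1 coding transcript in that annotation, the principal ENST00000375631, stood at 0.915 FPKM in MTAC-P and 0.818 in PC9 (0.08). The other 4 glycosidases, NAGLU, MAN2B2, HEXA and MANBA, were between 2.43 and 4.06 FPKM in MTAC-P and between 2.76 and 3.74 in PC9, with ratios from -0.28 to 0.09.

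GLB1, the lysosomal beta-galactosidase, stood at 11.9 FPKM in MTAC-P and 23.0 FPKM in PC9 (-0.90; chromosome 3, 32996608 to 33097230), and its transcripts went in different directions. The principal ENST00000307363 was higher in MTAC-P, at 10.0 FPKM against 7.47 FPKM in PC9 (0.38). The short ENST00000415454 was lower, at 0.603 FPKM in MTAC-P against 10.997 FPKM in PC9 (-2.90). The short form made up 5.06% of the summed GLB1 value in MTAC-P and 47.8% in PC9, and the sum and the principal transcript differ in direction. The short form has 591 bases in 6 exons, against 2616 bases in 16 exons of the principal one, and all 591 lie within the exons of the latter.

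The sulfatases, which remove sulfate from glycosaminoglycans and sulfatide, were within 2-fold. IDS, the iduronate sulfatase missing in Hunter syndrome, stood at 55.6 FPKM in MTAC-P and 65.9 FPKM in PC9 (-0.24). The sulfamidase SGSH stood at 1.48 FPKM in MTAC-P and 2.98 in PC9 (-0.68), ARSB at 3.58 FPKM in MTAC-P and 2.48 in PC9 (0.39), and ARSA at 1.36 FPKM in MTAC-P and 1.45 in PC9 (-0.06). Apart from IDS these enzymes were low in both lines, where the pseudocount shrinks the ratio.

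Genes of lipid and phosphate handling were within 2-fold as well, with 5 of 6 below 0. PSAP, the precursor of the saposins that present sphingolipids to their hydrolases, stood at 189 FPKM in MTAC-P and 212 FPKM in PC9 (-0.16). The acid lipase LIPA, which frees cholesterol from its esters, stood at 12.0 FPKM in MTAC-P and 19.96 in PC9 (-0.69), nearly all from its principal transcript. NPC2, which hands cholesterol to NPC1, stood at 18.3 FPKM in MTAC-P and 19.9 in PC9 (-0.12). The sphingomyelinase SMPD1 (0.41) and the acid phosphatase ACP2 (-0.15) completed the group.

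ASAH1, the acid ceramidase, stood at 24.3 FPKM in MTAC-P and 29.2 FPKM in PC9 (-0.26), but its transcripts exchanged places. ENST00000262097 stood at 21.4 FPKM in MTAC-P and 4.36 FPKM in PC9 (2.06). ENST00000417108, which is not in the GENCODE 29 annotation read here, stood at 0.876 FPKM in MTAC-P and 22.5 FPKM in PC9 (-3.64). ASAH1 was the 1 gene, of 18 with at least 2 transcripts compared, that held both a transcript at least 2-fold higher and another at least 2-fold lower, beside 6.7% of 4641 such genes in all. The principal ASAH1 transcript, ENST00000381733, stood at 1.76 FPKM in MTAC-P and 2.39 in PC9 (-0.30). With coding transcripts of GENCODE alone the ASAH1 ratio was 1.65, so its direction depends on which transcripts are counted. Only 3 of the 29 GENCODE coding transcripts of ASAH1 were listed.

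**Figure D4:**
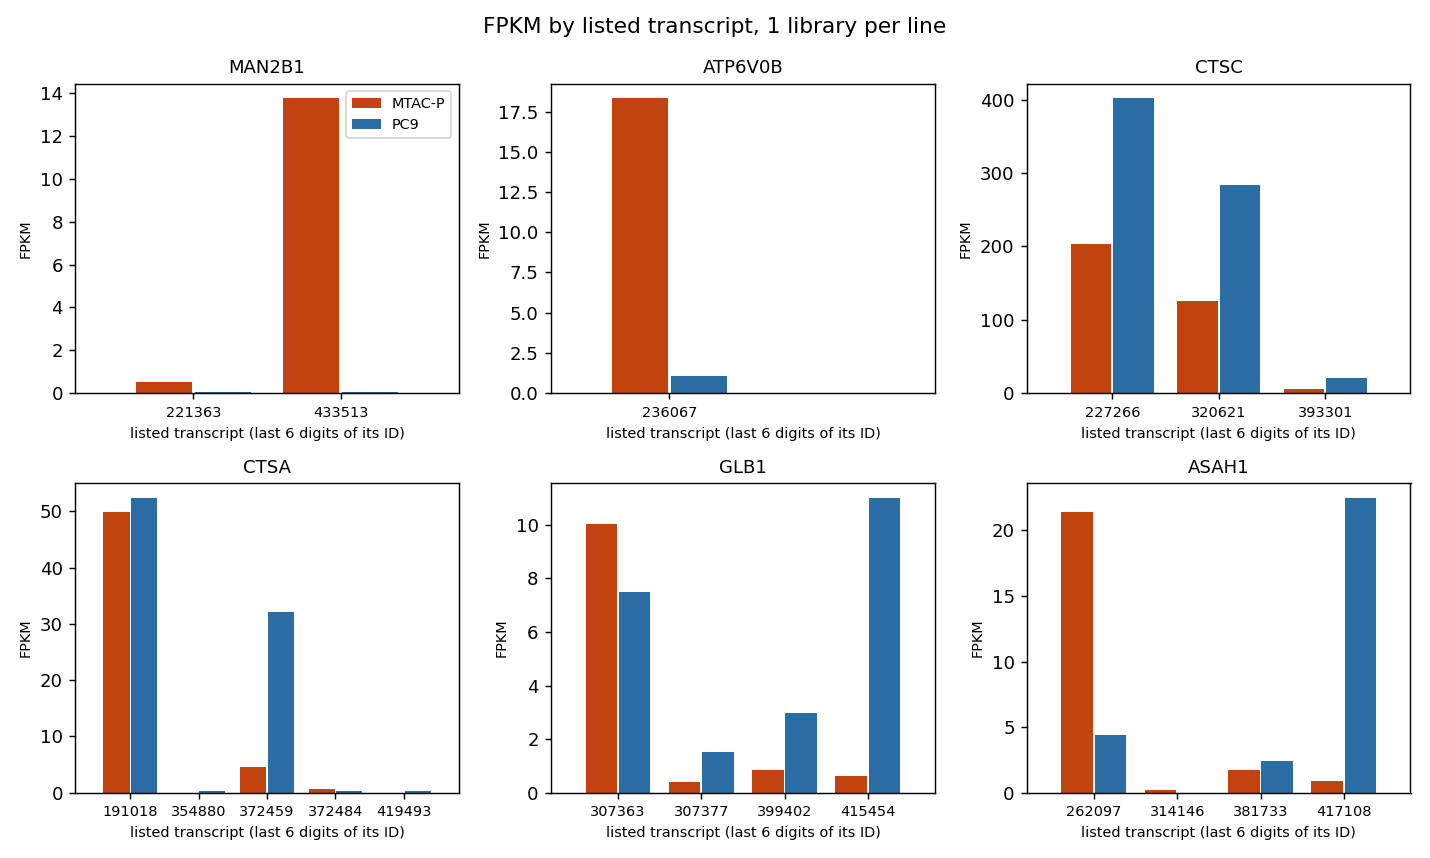
FPKM of each listed transcript with at least 0.1 FPKM in either library, for 6 genes, in MTAC-P (left bars) and PC9 (right bars), 1 library each; each panel has its own axis from 0. All CTSC transcripts are lower in MTAC-P, while in CTSA and GLB1 the most abundant MTAC-P transcript differs less than another one, and in ASAH1 2 transcripts differ in opposite directions.

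Lysosomal membrane proteins had a median of -0.07, and none of the 7 reached 2-fold. LAMP1 and LAMP2, the glycoproteins that line the inner face of the membrane, stood at 152 and 60.2 FPKM in MTAC-P, against 159 and 64.7 FPKM in PC9. Their coding transcripts were all listed, and their ratios were -0.07 and -0.10. The tetraspanin CD63 stood at 37.3 FPKM in MTAC-P and 63.7 FPKM in PC9 (-0.76), and both of its listed transcripts were lower. CD68, a marker of macrophages that many other cells also express, stood at 28.8 FPKM in MTAC-P and 22.2 in PC9 (0.36), with leukocyte markers at the low levels given above. SCARB2, which carries glucocerebrosidase to the lysosome, the cholesterol exporter NPC1 and the calcium channel MCOLN1 had ratios of -0.20, 0.24 and 0.06.

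TFEB, the regulator of lysosomal genes, was low in both lines, at 2.58 FPKM in MTAC-P and 1.75 FPKM in PC9 (0.38). Its relatives TFE3 and MITF stood at 6.87 and 12.6 FPKM in MTAC-P, against 8.06 and 12.8 FPKM in PC9. The sites these factors are known to bind include ones with CACGTG, and a longer form of that palindrome in lysosomal genes is known as the CLEAR element. Other sites were not searched. RefSeq promoters (GRCh38.p14, 250 bases before to 50 after the gene start) were at hand for 35 of the 50 genes. CACGTG, which reads the same on both strands, was found in 10 of the 35 (28.6%), beside 7.43% of all 27305 promoters. TCACGTGA, which contains it, was found in 6 (17.1%), beside 1.04% of all. The promoters of these genes were also richer in G and C, at 67.9% against 57.2% over all promoters, and the part of base composition was not tested. The 6 genes with TCACGTGA had a median log2 ratio of -0.0042, and the other 27 with a promoter that were compared had -0.12. The 6 sites are shown because they are the letters these genes share, with TCACGTGA in capitals, 5′ to 3′ on the strand of the gene.
MCOLN1, chr19:7522571-7522600: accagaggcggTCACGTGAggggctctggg
GAA, chr17:80101493-80101522: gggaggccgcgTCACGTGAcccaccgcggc
LAMP1, chr13:113297199-113297228: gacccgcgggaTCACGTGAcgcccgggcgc
CTSA, chr20:45891298-45891327: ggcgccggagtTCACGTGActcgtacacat
ATP6V0D1, chr16:67481199-67481228 (minus strand): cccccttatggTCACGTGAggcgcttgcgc
ATP6V1G1, chr9:114587699-114587728: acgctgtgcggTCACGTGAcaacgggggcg
A match is a run of letters and was not shown to be a bound site. The genes that hold it had log2 ratios between -0.65 for GAA and 0.17 for ATP6V0D1.

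By transcript, 81 of the 132 listed had a mean of at least 1 FPKM, and 16 of these (19.8%) were at least 2-fold apart, beside 16.6% of 19406 transcripts in all. Of the 16, 9 were higher and 7 lower in MTAC-P, beside 7.76% and 8.88% of all transcripts. They came from 12 genes, of which 8 were within 2-fold as a sum. The matching share over all genes was not computed, so nothing is read from these gene counts. With principal transcripts alone, 40 of the genes could be compared, and CTSS was the 1 at 2-fold, beside 6.64% of 8771 genes, 3.28% higher and 3.35% lower. On that measure 15 of 21 enzymes were below 0 (median -0.19), and CTSC, CTSD, TPP1, GAA, SGSH and LIPA were at least 1.5-fold lower, beside 9.29% of all genes. GLB1 and CTSB were not among them, and the principal transcript of CTSA was below the minimum mean.

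Other genes of the lysosome, from lists of genes that are not members, were also more often below 0 than above it. Of 62 such genes, 60 were in the tables and 47 were compared, with 32 below 0, a median of -0.14 and 2 at 2-fold, both lower. Over all genes, 52.4% were below 0 and 4.29% at least 2-fold lower. CTSF, another cysteine cathepsin, stood at 3.06 FPKM in MTAC-P and 7.92 FPKM in PC9 (-1.14). CLN3, a membrane protein lost in juvenile Batten disease, stood at 15.3 FPKM in MTAC-P and 32.1 in PC9 (-1.02), and its ratio was -0.33 with principal transcripts alone. None of the 47 was at least 2-fold higher, but 1 was with a pseudocount of 0.1 and 1 with principal transcripts alone. The palmitoyl-protein thioesterase PPT1 stood at 134 FPKM in MTAC-P and 144 in PC9. The phospholipase family member PLD3 had a ratio of -0.47. Among other pump subunits, ATP6V1F had -0.10 and ATP6V0A1 -0.22, and ATP6V0A1 had -1.08 with principal transcripts alone. ATP6V1C2, named for its value, had the highest ratio of that list, 0.74, at 1.82 FPKM in MTAC-P and 0.684 in PC9.

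Sorting, nutrient-sensing and autophagy genes were all within 2-fold as sums over their listed transcripts. The 9 genes that tag and sort hydrolases by mannose 6-phosphate had a median of -0.27, with 7 below 0. IGF2R, the large mannose 6-phosphate receptor, stood at 27.2 FPKM in MTAC-P and 27.8 FPKM in PC9, and GGA1, a sorting adaptor, at 33.3 FPKM in MTAC-P and 44.9 in PC9 (-0.42). The size and direction for GGA1 depend on the transcripts counted, with -4.24 for its highest single transcript and 0.50 for its principal ones. Of the MiT/TFE factors and mTORC1 machinery at the lysosome, 14 of 16 were compared (median -0.08), with LAMTOR5 (HBXIP in the tables) at 0.08 and LAMTOR4 (C7orf59 in the tables) at -0.25. The 17 autophagy genes compared had a median of 0.06, with the receptor SQSTM1 at 399 FPKM in MTAC-P and 509 FPKM in PC9 (-0.35) and GABARAPL2 at 80.1 FPKM in MTAC-P and 82.7 in PC9.

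**Figure D5:**
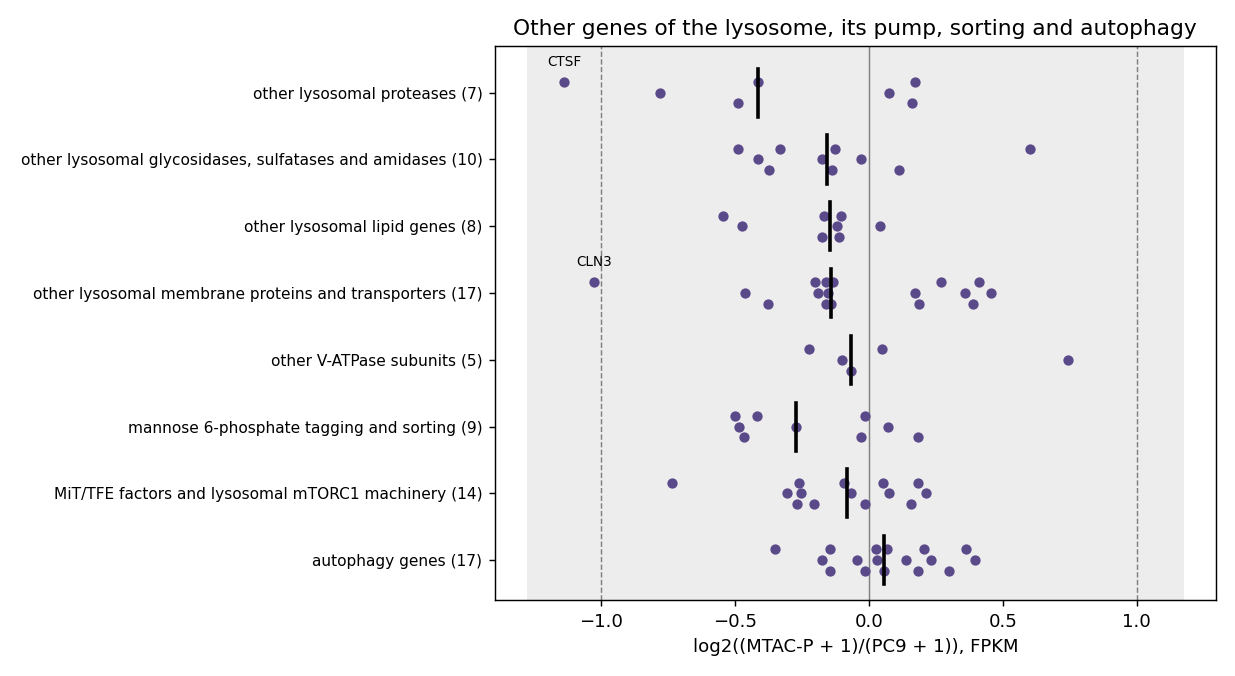
Log2 ratios of genes outside the set of 50 with a mean of at least 1 FPKM, by list (number in brackets), with list medians as bars, dashed lines at 2-fold and grey shading over the middle 95% of all genes compared. CTSF (-1.14) and CLN3 (-1.02) are the 2 genes past 2-fold.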

How the data were processed

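The series holds 1 library of MTAC-P and 1 of PC9. The submitters' processing notes name Trim Galore, TopHat, Cufflinks and hg38; no annotation release is named. The deposited tables give each transcript a single value, taken as FPKM because Cufflinks is named; the tables name no unit and hold no counts, so depth and precision are unknown. Of 65535 transcript IDs, 84.5% were in GENCODE release 29 (GRCh38), which supplied transcript types, principal tags and coordinates. That release was read for the primary assembly only, so an ID placed only outside it counts as not found.

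Values were summed per symbol with pandas 2.3.3 and compared by log2((MTAC-P + 1)/(PC9 + 1)) at a mean of at least 1 FPKM; 2-fold or more was counted. No test was possible with 1 library per line. The steps were checked on made-up tables with known answers. The members and lists were chosen with earlier results of these data known. Named in each role group were all genes at 2-fold and up to 4 others of the highest mean, with MAN2B1, ATP6V0B, TFEB, LAMP1, LAMP2, CTSD and CD68 always named; from other lists, up to 4 at 2-fold or the 2 most abundant, some of which are not reported here. Members or list genes named beyond this rule, and transcripts of CTSA, GLB1, NEU1 and ASAH1, were chosen after their values were seen. Of 130 list genes, 128 were in the tables, 4 under older symbols in RefSeq's gene table. Alternatives changed the pseudocount, the minimum mean, the scaling, the transcripts counted and the fold.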

Additional observations from a re-analysis of the deposited data

How the results depend on the processing

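The 4 members at 2-fold (3 higher, 1 lower) were 12 at 1.5-fold (3 higher, 9 lower), where 8.96% of all genes were higher and 11.2% lower. At 4-fold 2 members remained, both higher. Members at 2-fold were 0 of 7 where all coding transcripts were listed, beside 5.75% of all such genes. With principal transcripts only they were 1 of 40, beside 6.64% of all genes. With the highest single transcript of each gene they were 5, all higher. The share of all genes at 4-fold and with the highest single transcript was not computed, so nothing is read from those 2 counts. The 2 other lysosomal genes at 2-fold, both lower, were 3 (1 higher, 2 lower) with a pseudocount of 0.1 and with principal transcripts only, 0 with a pseudocount of 5, 5 at 1.5-fold, 0 at 4-fold, 0 of 6 where all coding transcripts were listed and 1 with coding transcripts of GENCODE 29. The median of the enzymes was -0.050 with the highest single transcript and -0.025 for the 3 enzymes with all coding transcripts listed, and that of the pump was 0.21 for its 2 subunits of that kind. The last setting tests fewer genes. ASAH1 had a ratio of 2.06 with its highest transcript and 1.65 with coding transcripts of GENCODE 29, against -0.26 for the sum. The sum holds a transcript not in the GENCODE 29 annotation read here. Otherwise the medians moved by less than 0.1. Across the alternatives, 543 values of 50 named genes were computed: 531 stayed on the same side of 2-fold, 8 came within it, 2 passed it and the 2 of ASAH1 passed it with the other sign. Within 2-fold, 11 values of 6 more genes also changed sign with other transcripts counted (LAMP1, CTSD, GLB1, GUSB, ATP6V1E1 and GGA1). The cause was not tested. A setting in which a gene was not compared gave no value and is not in these counts. MAN2B1 and ATP6V0B had no value with principal transcripts only or where all coding transcripts were required. MAN2B1 also had none with coding transcripts of GENCODE 29. Settings by GENCODE transcripts were added after seeing the data. No paired analysis was possible because MTAC-P and PC9 have 1 library each, and for the same reason no replicate could be left out. Depth is unknown, so low genes such as CTSS and TFEB cannot be given a precision.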
